A study of Mus musculus with 283 samples.

Results

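The genes described here are 10 mouse genes tied to neutrophils and to the acute-phase response: S100a8, S100a9, Retnlg, Cxcr2, Cxcl1, Cxcl2, Cxcl5, Csf3, Saa3 and Lcn2. They were chosen by name, as the rows of the tumour expression table that carry these symbols, and they are 10 of the 45657 gene entries kept from that table. All 10 were present, and all 10 passed the filter on low values. Levels are log2(deposited value + 1) throughout, where the deposited value is a gene's signal scaled to the upper quartile of its library. A difference of 1 on this scale is a doubling, except for low genes, whose change it understates. The values are not per gene length, so each gene is compared with itself across samples and not with other genes.

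The series profiled mouse models of triple-negative breast cancer by RNA-seq, to find what separates tumours that respond to immune checkpoint antibodies from those that do not. Of its 270 RNA-seq libraries, 107 carry the class sensitive, 86 resistant, 62 unknown and 9 come from mammary gland, with 6 cultured lines beside them. Tumours of the transplanted models were grown in the mammary gland of syngeneic mice to 5 mm and assigned to an arm. Treated mice received anti-PD1 (10 mg/kg) together with anti-CTLA4 (125 ug), antibodies that block inhibitory receptors of T cells, by intraperitoneal injection, and tumours were taken at 3 days, at 7 days or at end stage.

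The groups were as follows, with treated libraries before untreated ones. Of the sensitive models, KPB25L had 5 and 5 libraries at 3 days, 4 and 4 at 7 days and 3 and 6 at end stage. KPB25L-UV had 3 and 4, then 6 and 4, then 4 and 6. T11-UV had 3 and 4, then 4 and 4, then 5 and 4. T11-Apobec had 4 and 4 at each time. Of the resistant models, T11 had 4 and 4, then 4 and 4, then 5 and 5. p53-2225L had 5 and 4 at 3 days and 3 and 5 at end stage, and p53-2336R had 5 and 3 at 3 days and 5 and 8 at end stage. The 3-day time also held untreated tumours of KPB25L-Apobec (n = 5), KPB-1A (n = 2), p53-2153F, p53-2224L and p53-9263-3 (n = 4 each). KPB-1A had 5 untreated end-stage libraries, and p53-2224, p53-2224L and p53-9263-3 had 1 each. Untreated end-stage tumours came from C3-TAG (11 libraries), ILC-Pik3Ca/Cdh1Null (10), KPB-1B (4), KPB-Primary (24) and PyMT (5). The file headers call C3-TAG resistant, while its class in the labels is unknown. The mammary glands came from BALB/c (n = 5) and FVB (n = 4) mice. KPB names tumours of K14-Cre; Brca1/p53 f/f mice, in which the keratin promoter K14 drives Cre. KPB25L lines grow in FVB mice, and T11 and the p53-null lines in BALB/c mice. UV and Apobec mark derivatives of KPB25L or T11. Each transplanted model is 1 line, so its tumours are replicate mice and not replicate lines. Untreated tumours have no control antibody in the labels.

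The libraries held an estimated 3.47 to 149.56 M reads each (median 51.4 M), and 3 reads corresponded to a level of 1.17 to 5.90 (median 2.01). The file headers call the untreated 3-day tumours pretreatment, so at 3 days therapy and time since assignment cannot be told apart. Transcripts that mark T11 lines were present in 6 KPB25L-UV libraries, 1 untreated at 3 days, 2 untreated and 2 treated at 7 days and 1 untreated at end stage. The mean level of those marker genes was 6.22 to 8.35 in these 6 and 1.62 to 3.28 in the other 21 KPB25L-UV libraries, so each result that rests on KPB25L-UV is also given without them where that changes it. In bulk tumours, fewer cells of a type and less RNA per cell cannot be told apart.

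Neutrophils are short-lived phagocytes released from bone marrow under the growth factor G-CSF, which Csf3 encodes. Chemokines with a glutamate-leucine-arginine motif, among them the products of Cxcl1, Cxcl2 and Cxcl5, bind the receptor CXCR2 on these cells and draw them into inflamed tissue and tumours. S100A8 and S100A9 pair as calprotectin, an abundant protein of neutrophil and monocyte cytoplasm, and Retnlg encodes a resistin-like protein that mouse neutrophils express. Serum amyloid A3 (Saa3) and lipocalin 2 (Lcn2), a siderophore-binding protein of neutrophil granules and of epithelium, belong to the acute-phase genes that inflammatory cytokines induce in many tissues. In breast tumours, neutrophils and immature myeloid cells are known for both suppressing and aiding T cell responses.

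In the GRCm38 (mm10) assembly with GENCODE vM21, all 10 are protein-coding genes. S100a8 lies at chr3:90668978-90670035 on the plus strand and S100a9 close by at chr3:90692632-90695721 on the minus strand. The chemokine genes Cxcl5 (chr5:90759360-90761624), Cxcl1 (chr5:90891241-90893115) and Cxcl2 (chr5:90903871-90905938) share a stretch of chromosome 5, all on the plus strand. Csf3 lies at chr11:98701263-98703629 and Cxcr2 at chr1:74153989-74161246, both on the plus strand. Retnlg lies at chr16:48872621-48874496 on the plus strand, with Saa3 at chr7:46711998-46715700 and Lcn2 at chr2:32384633-32388252, both on the minus strand.

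The promoters of the neighbouring ligand genes Cxcl1 and Cxcl2 share a motif that few other promoters hold. The sequences below are 250 bases from RefSeq (GRCm38.p6), plus strand, at chr5:90890995-90891244 for Cxcl1 and chr5:90903649-90903898 for Cxcl2. Capitals mark GGGAATTTCC, a form of the site that NF-kappaB factors are known to bind. It lies at bases -71 to -62 from the RefSeq start of Cxcl1 and -97 to -88 from that of Cxcl2. Each RefSeq start follows the last base printed and lies downstream of the GENCODE start given above.
Cxcl1: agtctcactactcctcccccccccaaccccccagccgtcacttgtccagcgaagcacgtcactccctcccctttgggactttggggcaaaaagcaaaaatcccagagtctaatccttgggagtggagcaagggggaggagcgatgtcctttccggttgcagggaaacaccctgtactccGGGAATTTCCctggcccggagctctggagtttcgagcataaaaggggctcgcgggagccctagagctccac
Cxcl2: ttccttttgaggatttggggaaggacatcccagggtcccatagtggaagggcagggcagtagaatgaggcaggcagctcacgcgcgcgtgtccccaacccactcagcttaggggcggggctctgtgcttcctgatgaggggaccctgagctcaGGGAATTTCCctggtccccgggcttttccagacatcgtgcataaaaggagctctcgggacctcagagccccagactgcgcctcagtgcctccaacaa
Searched on both strands, GGGAATTTCC occurred in 28 of 32851 mouse promoters of 250 bases (0.0852%). Of the 8 members with an entry in that table, Cxcl1 and Cxcl2 held it. The looser pattern GGGNNNNNCC, overlaps counted, occurred in 45.8% of all promoters and in those of Cxcr2, Lcn2, Cxcl1 and Cxcl2. Over 50 bases that start 20 bases before the shared motif, the Cxcl1 and Cxcl2 promoters were identical at 29. These matches describe the letters and do not show binding, and their part in the levels of these genes was not tested.

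Among untreated 3-day tumours, the levels of all 10 genes differed among the 12 transplanted models (limma F test, every adjusted p at or below 0.000348), as did those of 96.9% of all genes tested. Lcn2 gave the largest F of the 10 (23.8, adjusted p = 1.12e-26). It averaged 17.31 ± 0.23 in p53-2224L, 16.10 ± 0.76 in p53-2153F and 14.80 ± 0.03 in p53-2336R, and at the other end 6.51 ± 1.69 in T11 and 6.21 ± 1.72 in T11-Apobec (SD). In that order p53-2224L, p53-2153F, p53-2336R and KPB-1A (13.84) followed each other without overlap. From T11-UV (8.29) through T11 to T11-Apobec, neighbouring models overlapped. The calprotectin genes followed another order. S100a8 was highest in p53-9263-3 (10.81 ± 0.72), whose 4 tumours lay above all those of p53-2224L (8.99) and T11-UV (8.94 ± 0.28), and lowest in p53-2336R (2.85 ± 0.67). S100a9 was likewise highest in p53-9263-3 (10.89 ± 0.50) and lowest in p53-2336R (2.94), and every neighbouring pair above KPB-1A (4.09) overlapped. So p53-2336R combined Lcn2 levels of 14.77 to 14.84 with S100a8, S100a9 and Cxcr2 (1.495 ± 0.608) at their lowest means of the 12 models.

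**Figure D1:**
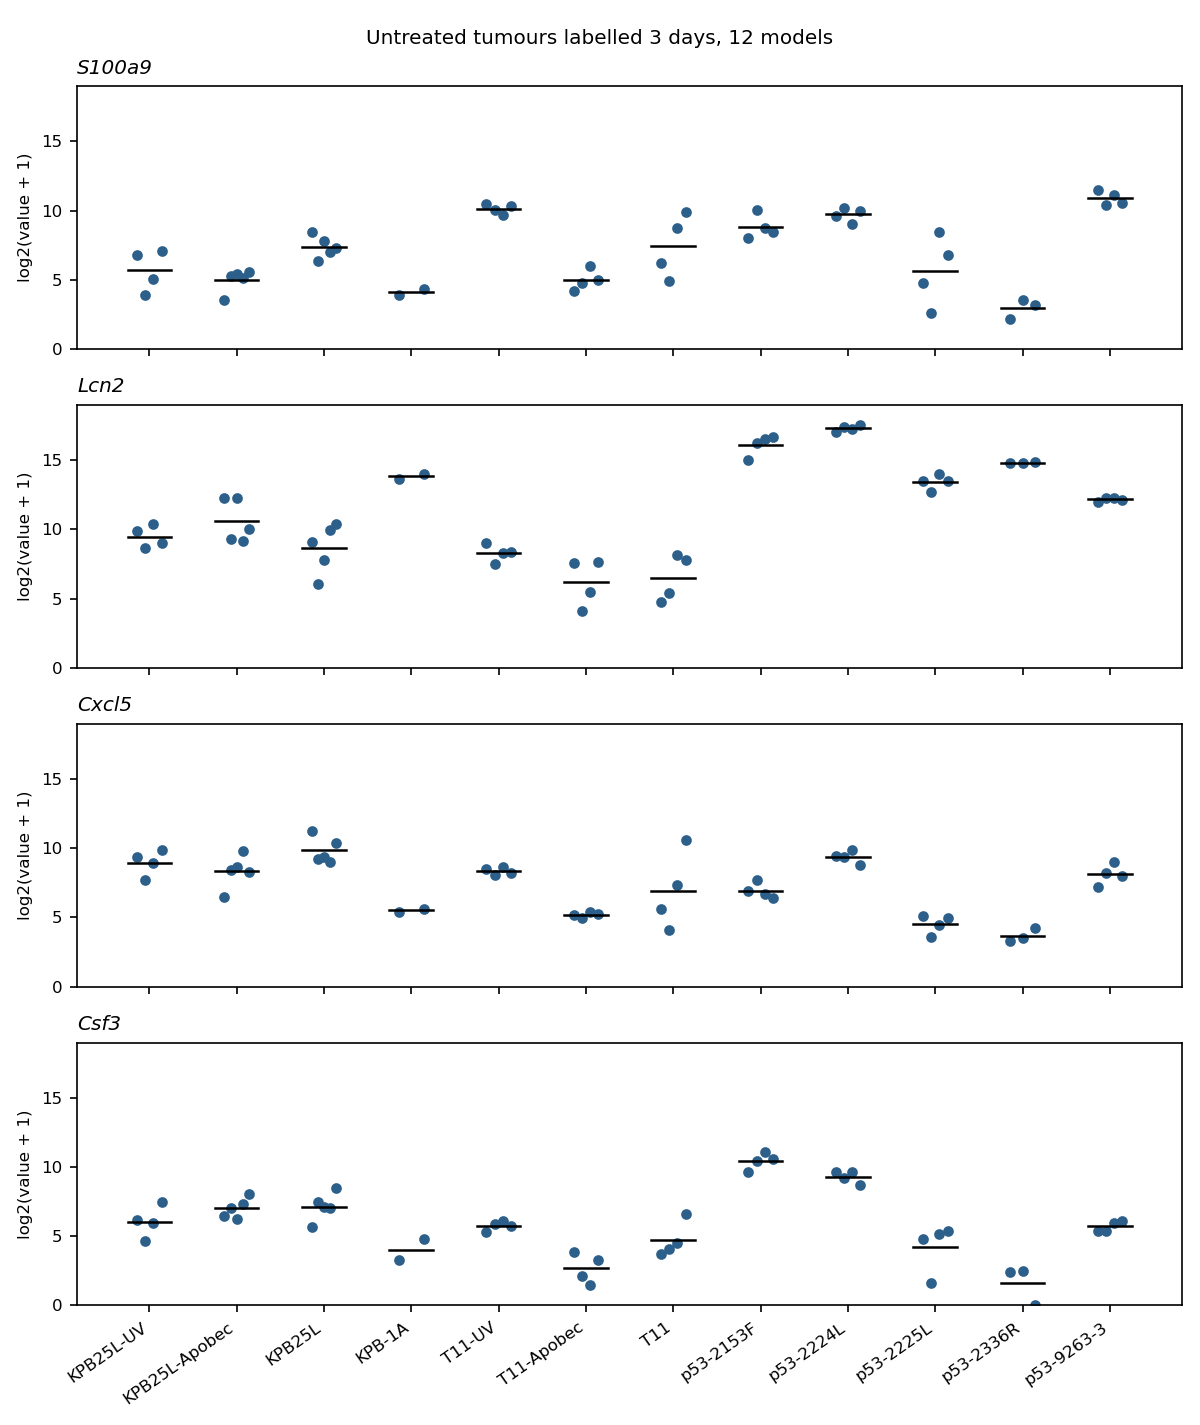
Levels of S100a9, Lcn2, Cxcl5 and Csf3 in untreated 3-day tumours of the 12 transplanted models, on a log2(value + 1) axis, with 1 point per library and a line at each mean. Lcn2 and Csf3 separate the models most widely, with Lcn2 at 17.31 in p53-2224L and 6.21 in T11-Apobec.

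The receptor and its ligands were ordered differently again. Cxcr2 was highest in p53-2224L (7.96 ± 0.61), and Cxcl1 too, at 12.22 ± 0.32, above every tumour of T11-UV (11.32), its nearest neighbour. Cxcl1 was lowest in p53-2336R (6.01 ± 0.43). Cxcl2 ranged between means of 7.65 ± 0.34 in T11-UV and 2.93 in p53-2336R. Cxcl5 was highest in KPB25L (9.84 ± 0.95) and lowest in p53-2336R (3.68). Csf3 stood apart in p53-2153F, at 10.45 ± 0.59 over 4 tumours between 9.66 and 11.10, and in p53-2224L at 9.29, while T11-Apobec averaged 2.68 and p53-2336R 1.64 ± 1.42, close to the level of a few reads. Saa3 was highest in p53-2224L (11.53 ± 2.61) and lowest in KPB-1A (5.01 ± 0.47), and Retnlg lay between 5.95 ± 0.40 in T11-UV and 2.08 in KPB-1A.

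Between the parental lines, sensitive KPB25L and resistant T11, the differences lay in Cxcl5 and Csf3. Cxcl5 was 8.99 to 11.26 in the 5 untreated KPB25L tumours and 4.07 to 10.62 in the 4 untreated T11 tumours, a difference of 2.93 ± 0.89 (log2, SE; limma adjusted p = 0.0056). The arms overlapped through 1 T11 tumour at 10.62. Csf3 was 5.65 to 8.47 in KPB25L and 3.71 to 6.62 in T11 (difference 2.40 ± 0.86, adjusted p = 0.022). These 2 of 10 genes stand beside 32.5% of all genes called in either direction, and the models also differ in mouse strain, which cannot be told apart from the line. No member was called between T11-UV and T11 (0.264% of genes), T11-Apobec and T11 (5.49%), KPB25L-UV and KPB25L (11.7%) or KPB25L-Apobec and KPB25L (3.81%). Across the 5 sensitive and 7 resistant models together no member was called either, beside 0.729% of all genes. Lcn2 came nearest, at -4.80 ± 1.44 in sensitive minus resistant models (adjusted p = 0.088).

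At 3 days, 8 of the 10 genes rose in treated tumours across the 4 sensitive models, beside 6.92% of all genes (13.8% in either direction). These were S100a8, S100a9, Retnlg, Cxcr2, Lcn2, Saa3, Cxcl1 and Cxcl5, by 0.98 to 1.86 on the log2 scale. The median over all 10 was 1.52, against -0.07 over all genes. Saa3 gave the largest difference, 1.86 ± 0.54 (limma adjusted p = 0.018), and S100a8 the smallest adjusted p, at 1.69 ± 0.45 (adjusted p = 0.011). Cxcl2 (0.95 ± 0.44, adjusted p = 0.12) and Csf3 (0.34 ± 0.46, adjusted p = 0.65) did not pass. The calls were not stable. Without KPB25L none of the 10 passed (S100a8 1.25, adjusted p = 0.12), and none passed without its treated tumours 4 and 5 alone (S100a8 1.12, adjusted p = 0.088), with the sequencing flow cell as a term, or with the spread taken from the compared groups only. Leaving out single libraries kept between 0 and 8 calls, with 0 without treated T11-UV tumour 1, 2 without treated T11-UV tumour 3 and 3 without treated KPB25L tumour 4. Without the 6 KPB25L-UV libraries with T11 transcripts, 7 passed, beside 20.1% of all genes, and Retnlg did not (1.35, adjusted p = 0.0518).

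In KPB25L itself 8 genes rose at 3 days, beside 8.7% of all genes (14.4% in either direction). S100a8 was 5.86, 8.55, 7.81, 13.51 and 12.81 in the 5 treated tumours, against 7.75, 5.99, 6.80, 6.32 and 6.61 in the untreated ones. Retnlg was 2.83, 6.62, 2.72, 11.16 and 10.93 in treated tumours, against 2.93, 2.33, 3.10, 3.92 and 2.17 in untreated ones. Treated tumours 4 and 5 lay far above every other tumour of the model, treated tumour 2 lay above the untreated ones, and treated tumours 1 and 3 lay among them or close by. The same order held for Saa3, at 8.29, 15.25, 8.63, 16.28 and 15.71 in treated tumours, against 8.39, 5.95, 9.19, 10.53 and 10.72 in untreated ones. Tumours 4, 5 and 2 were the 3 highest Saa3 values among all tumours of the series. Among the ligands, Cxcl5 was 9.09, 12.61, 10.85, 15.62 and 14.71 in treated tumours, against 11.26, 9.24, 9.34, 8.99 and 10.36 in untreated ones, and 15.62 was its highest value in the series. Cxcl2 was 5.98, 7.23, 5.78, 12.46 and 10.77 in treated tumours, against 6.57, 4.16, 7.39, 7.19 and 6.45 in untreated ones. In each of these genes the arms overlapped through the low treated tumours.

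The differences in KPB25L were 3.96 ± 0.92 for Retnlg (limma adjusted p = 0.0024), 3.88 ± 0.95 for Saa3 (0.0038), 3.02 ± 0.78 for S100a8 (0.006) and 3.11 ± 0.82 for S100a9 (0.007). The chemokine genes followed with 2.74 ± 0.84 for Cxcl5, 2.09 ± 0.77 for Cxcl2 and 1.69 ± 0.60 for Cxcl1, and their receptor Cxcr2 with 2.33 ± 0.79. Lcn2 (2.55 ± 0.95, adjusted p = 0.053) and Csf3 (0.67 ± 0.81, adjusted p = 0.60) did not pass. Untreated tumours 1 and 2 have no flow cell in the labels. Treated tumours 4 and 5 were sequenced together on a flow cell that, by the labels, held no other 3-day KPB25L tumour. Without both, no member was called, S100a8 differed by 0.71 and Cxcl2 by -0.024, and with flow cell as a term no member was called. Leaving out treated tumour 4 alone or 5 alone also removed all 8 calls. Over the 10 runs that left out 1 tumour, S100a8, S100a9, Saa3 and Retnlg were called in 8, Cxcl5 in 6, Cxcr2 in 4 and Cxcl1 and Cxcl2 in 3 each.

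Other genes of the pathway and markers of other cells moved with these tumours. A neutrophil marker list of 7 genes that are not members, Ly6g, Ngp, Camp, Ltf, Mmp8, Csf3r and Il1r2, averaged 4.55, 6.70, 4.35, 8.77 and 8.51 in treated KPB25L tumours 1 to 5, against 3.83 to 4.73 in untreated ones. In tumours 4 and 5 none of the 7 was at 0, and the granule genes Ngp (5.29 and 5.94) and Camp (5.39 and 5.00) were present. The monocyte list was 7.83, 11.48, 9.53, 12.80 and 12.69 in treated tumours, against 7.42 to 9.82 in untreated ones. The T cell list was 5.47, 9.57, 6.80, 10.12 and 9.76, against 5.53 to 8.14, and the adipocyte list 4.81, 10.49, 1.89, 10.72 and 8.79, against 1.33 to 5.24. Their part in the members' difference was not tested. Of wider lists without the members, 14 of 28 neutrophil granule and surface genes rose in KPB25L and none fell (median 1.70), among them the histamine-forming enzyme Hdc (3.06), the stefin Stfa2 (3.31) and the G-CSF receptor Csf3r (1.71). Of 15 acute-phase genes 11 rose (median 3.03), with Saa2 at 3.84, the pentraxin Ptx3 at 3.63 and the fibrinogen chain Fgb at 4.65. Of 12 upstream cytokine genes 5 rose, with Il6 at 2.78, Osm at 2.31 and Tnf at 1.56.

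The other 3 sensitive models gave no call at 3 days on their own. In KPB25L-UV, where untreated tumour 3 carried T11 transcripts, S100a9 was 7.22, 8.94 and 8.53 in treated tumours, against 6.76, 3.92, 5.04 and 7.08 in untreated ones (2.53 ± 1.00, limma adjusted p = 0.36, 0 of 20859 genes called). The arms did not overlap, but the untreated tumours spread widely. In T11-Apobec, Cxcl5 was 8.17, 6.83, 5.96 and 5.47 in treated tumours, against 5.18, 4.99, 5.39 and 5.24 in untreated ones (1.41 ± 0.94, adjusted p = 0.55, 0.125% of genes called). In T11-UV, S100a8 did not differ beyond its spread, at 9.18, 8.92 and 8.78 in treated tumours, against 9.18, 8.93, 8.55 and 9.08 in untreated ones (0.02, 95% interval -1.85 to 1.90), in a model where 14.1% of genes were called. Its Saa3 was 13.65, 9.68 and 13.56, against 10.03, 10.72, 8.97 and 9.68 (2.45 ± 1.15, adjusted p = 0.13).

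In the 3 resistant models at 3 days no member passed, nor did any of the 20859 genes, of which 2.21% had an unadjusted p under 0.05. Saa3 differed by 1.46 ± 0.61 and S100a8 by 0.89 ± 0.50 (adjusted p = 1 for both). With flow cell as a term, 4 members passed, S100a8 (2.66), S100a9 (2.98), Saa3 (3.74) and Cxcl2 (2.72), beside 0.547% of all genes. In p53-2225L, S100a8 was 6.25, 5.82, 5.28, 8.76 and 8.27 in treated tumours, against 4.11, 2.82, 7.75 and 5.93 in untreated ones, and the arms overlapped. In p53-2336R it was 3.79, 2.19, 3.56, 3.48 and 2.61, against 2.41, 3.63 and 2.52, and in T11 7.04, 7.11, 5.84 and 8.06, against 4.77, 4.55, 7.47 and 8.52. The test of the sensitive minus the resistant effect called no member and no other gene by limma, with 1815 genes at an unadjusted p under 0.05. Cxcl1 had the smallest unadjusted p of the members, at 1.06 ± 0.51 (adjusted p = 0.56). Rises in the sensitive models are therefore not shown to differ from the resistant ones.

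**Figure D2:**
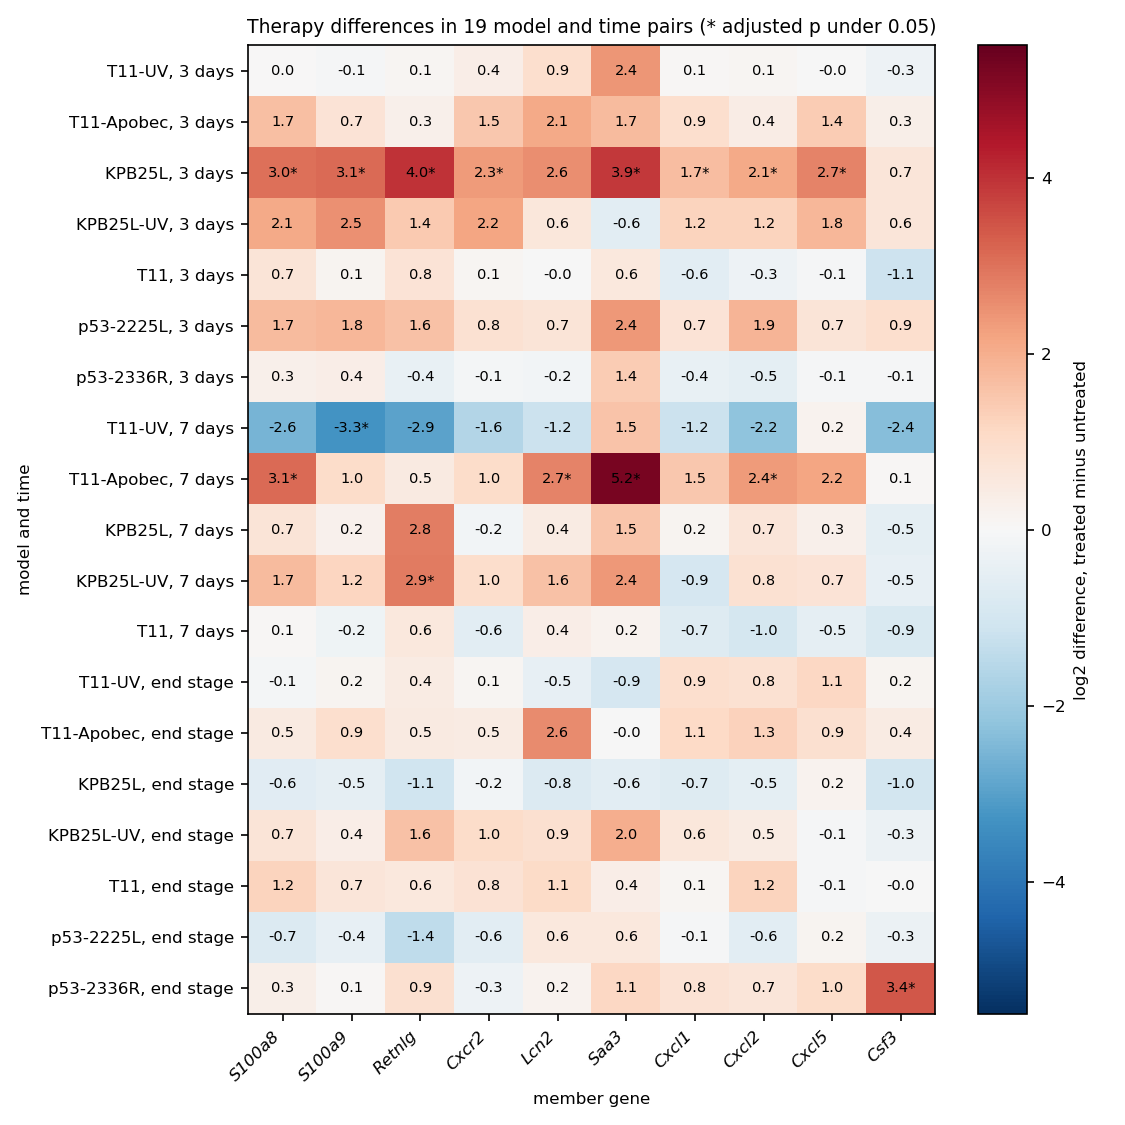
Difference in level, treated minus untreated on the log2 scale, for the 10 genes (columns) in each of the 19 model and time combinations (rows), with asterisks at a limma adjusted p under 0.05. Of 190 cells 15 carry an asterisk, 8 of them in KPB25L at 3 days and 4 in T11-Apobec at 7 days.

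At 7 days the 4 sensitive models as a group differed in Saa3 alone of the 10, by 2.67 ± 0.53 (limma adjusted p = 3.4e-05), beside 15.5% of all genes that rose (36.6% in either direction). Of wider lists without the members, 9 of 28 neutrophil genes rose, with the C-type lectins Clec4d at 2.28 and Clec4e at 2.24 and Mcemp1 at 1.87, and 6 of 15 acute-phase genes, with Orm1 at 3.00 and C3 at 2.36. The T cell list rose in 6 of 6 genes beside them (median 2.41). Lcn2 (0.91 ± 0.53) and Cxcl5 (0.85 ± 0.47) were positive and Csf3 negative (-0.82 ± 0.45) without passing. Behind the single call, the members took opposite directions in different models. The F test of the therapy effect among the 5 models sampled at 7 days, added after the values were seen, called S100a8 (adjusted p = 0.0098), Retnlg (0.017) and Cxcl2 (0.040), beside 7.83% of all genes. When T11-UV, whose arms were sequenced on separate flow cells, was left out, 5 members rose in the other 3 sensitive models, with Saa3 at 3.04 ± 0.62, Retnlg at 2.05 ± 0.59, S100a8 at 1.86 ± 0.51, Lcn2 at 1.60 ± 0.61 and Cxcl2 at 1.29 ± 0.50, beside 35.6% of all genes in either direction. Without the 6 KPB25L-UV libraries with T11 transcripts as well, 3 members passed in those 3 models, beside 33.4% of all genes, Saa3 at 2.92, Retnlg at 2.14 and Csf3 at -1.28 (adjusted p = 0.044). S100a8 (1.26, adjusted p = 0.064), Lcn2 (0.44) and Cxcl2 (0.57) did not. Over all 4 models without the 6 libraries, 2 members passed, Saa3 at 2.57 and Csf3 at -1.55, beside 35% of all genes, while Lcn2 was at 0.04 and Cxcl5 at 0.14. In the runs without the 6 libraries, KPB25L-UV kept only untreated tumours 1 and 2 at 7 days.

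T11-Apobec carried 4 of the 7-day calls, beside 13.7% of genes that rose (29.3% in either direction). Saa3 was 13.97, 11.46, 12.82 and 12.08 in treated tumours, against 6.89, 6.62, 7.47 and 8.46 in untreated ones. S100a8 was 10.10, 7.69, 9.18 and 8.23, against 5.34, 5.51, 4.49 and 7.33. In both genes every treated tumour lay above every untreated one, by 5.22 ± 1.07 for Saa3 (limma adjusted p = 9.4e-05) and 3.13 ± 0.88 for S100a8 (0.0041), and both stayed called when any of the 8 tumours was left out. Lcn2 was 7.30, 6.93, 7.46 and 7.96, against 3.33, 4.30, 4.13 and 6.92 (2.74 ± 1.06, adjusted p = 0.040). Cxcl2 was 7.94, 6.10, 8.50 and 6.18, against 4.90, 4.41, 3.97 and 6.02 (2.36 ± 0.86, adjusted p = 0.028). The last 2 arms did not overlap, but the gap was narrow, and the call held in 2 of 8 leave-outs for Lcn2 and in 4 of 8 for Cxcl2.

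S100a9, the partner of S100a8, did not pass in T11-Apobec. It was 7.30, 6.85, 8.70 and 5.83 in treated tumours, against 5.63, 6.02, 4.49 and 8.50 in untreated ones (1.01 ± 0.92, adjusted p = 0.43). Cxcr2 was 4.88, 4.81, 6.22 and 3.36, against 3.55, 3.98, 1.97 and 5.69, and Retnlg differed by 0.48. Untreated tumour 4 had the highest S100a9, S100a8 and Cxcr2 of its arm. The 7-gene neutrophil list was 4.78 to 5.47 in treated tumours, against 3.51 to 4.69, the monocyte list 9.76 to 12.06, against 6.36 to 6.92, and the T cell list 9.92 to 10.53, against 7.09 to 7.95. The monocyte and T cell lists thus separated the arms more widely than the neutrophil list did. Their part in the members' differences was not tested. Of the wider lists 11 of 28 neutrophil genes rose, led by the C-type lectins Clec4d (5.00) and Clec4e (4.56) and by Mcemp1 (3.99), and 7 of 15 acute-phase genes, with Orm1 at 5.21, Serpina3n at 3.71, Ptx3 at 3.27 and complement C3 at 3.21. Of 12 upstream cytokine genes 7 rose, among them Csf2 (3.22), Il1rn (2.70), Il1a (2.58) and Tnf (2.19). The chemokine Cxcl3 (3.26), a further CXCR2 ligand, and the related receptor gene Cxcr1 (2.04) rose as well.

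In T11-UV S100a9 went the other way at 7 days, while some genes of the wider lists rose. S100a9 was 8.80, 8.07, 8.21 and 8.06 in treated tumours, against 9.19, 10.88, 15.57 and 10.72 in untreated ones. All treated tumours lay below all untreated ones, and the difference was -3.31 ± 0.92 (limma adjusted p = 0.012, beside 3.14% of genes that fell and 7.45% in either direction). Untreated tumour 3 held the highest S100a9 of all tumours in the series, and without it the difference was -1.98 (adjusted p = 0.27). S100a8 was 8.73, 7.44, 8.78 and 6.83, against 8.27, 9.81, 14.31 and 9.68 (-2.57, adjusted p = 0.052). Cxcl2 was 6.68, 6.21, 6.50 and 5.69, against 5.89, 7.56, 12.80 and 7.73, and Retnlg 5.78, 3.85, 4.75 and 3.59, against 4.73, 7.54, 10.62 and 6.83. In these 3 genes the arms overlapped through untreated tumour 1. Saa3 was 12.90, 9.88, 13.84 and 8.17, against 11.001, 8.71, 9.09 and 9.82 (1.55, adjusted p = 0.45), so treated tumours 1 and 3 were high in Saa3 and not in S100a9. The neutrophil list was 4.91 to 6.13 in treated tumours, against 4.38, 5.20, 7.36 and 4.59, while the T cell list was 9.14 to 9.83, against 5.74 to 7.76. Of the wider lists, the acute-phase genes C3 (3.69) and Serpina3g (3.66), the neutrophil gene Gpr84 (2.30) and the cytokine gene Tnf (1.725) rose. Each arm was sequenced on its own flow cell. With flow cell as a term, which then rests on tumours of other groups on those flow cells, the S100a9 difference was -4.22 ± 1.94 (limma adjusted p = 0.25). The labels give the 4 treated tumours the same 4 mouse numbers as the treated end-stage tumours of KPB25L-UV. The T11 marker mean was 7.69 to 8.43 in the 4 treated T11-UV tumours and 1.62 to 2.82 in those of KPB25L-UV, so the transcripts went with the model labels.

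In KPB25L-UV at 7 days Retnlg alone of the 10 rose, beside 8% of genes (19.4% in either direction). The treated tumours had 3.15, 5.31 and 7.87 (lowest, median and highest of 6), against 3.21, 2.16, 0.98 and 3.24 in untreated ones, a difference of 2.85 ± 0.94 (limma adjusted p = 0.022). The arms overlapped through treated tumour 4. The call was lost without untreated tumour 3 or treated tumour 2, and without the libraries that carried T11 transcripts (3.12, adjusted p = 0.061). Without those libraries 2 other members fell, beside 17.6% of genes called in either direction, Cxcl1 (-2.90, limma adjusted p = 0.0048) and Csf3 (-3.40, adjusted p = 0.010). These falls rest on untreated tumours 1 and 2, the only untreated ones left. Csf3 had a lowest of 1.86, a median of 4.28 and a highest of 7.44 in treated tumours, against 7.49, 8.24, 0.00 and 2.87 in untreated ones, of which the last 2 carried T11 transcripts. Saa3 was 10.63 to 12.22 in treated tumours, against 10.92, 8.03, 8.64 and 9.62 in untreated ones (2.37, adjusted p = 0.070).

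In KPB25L itself no member was called at 7 days, nor was any other gene. Retnlg was 6.41, 4.20, 7.41 and 7.37 in treated tumours, against 1.84, 4.69, 5.39 and 3.75 in the untreated libraries (2.81 ± 1.11, limma adjusted p = 0.71), where untreated libraries 2 and 3 came from 1 mouse and were averaged. In the resistant model T11, Saa3 was 8.73, 9.81, 8.58 and 9.0, against 8.12, 10.08, 9.70 and 7.53 (95% interval of the difference -1.93 to 2.28), and 0 of 20859 genes passed by limma, with 61 at an unadjusted p under 0.05. The sensitive effect minus the T11 effect was 2.49 ± 1.19 for Saa3 (adjusted p = 0.51, 95% interval 0.14 to 4.85), beside 0.00479% of genes called, so a difference in response between sensitive models and T11 did not pass for any member.

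**Figure D3:**
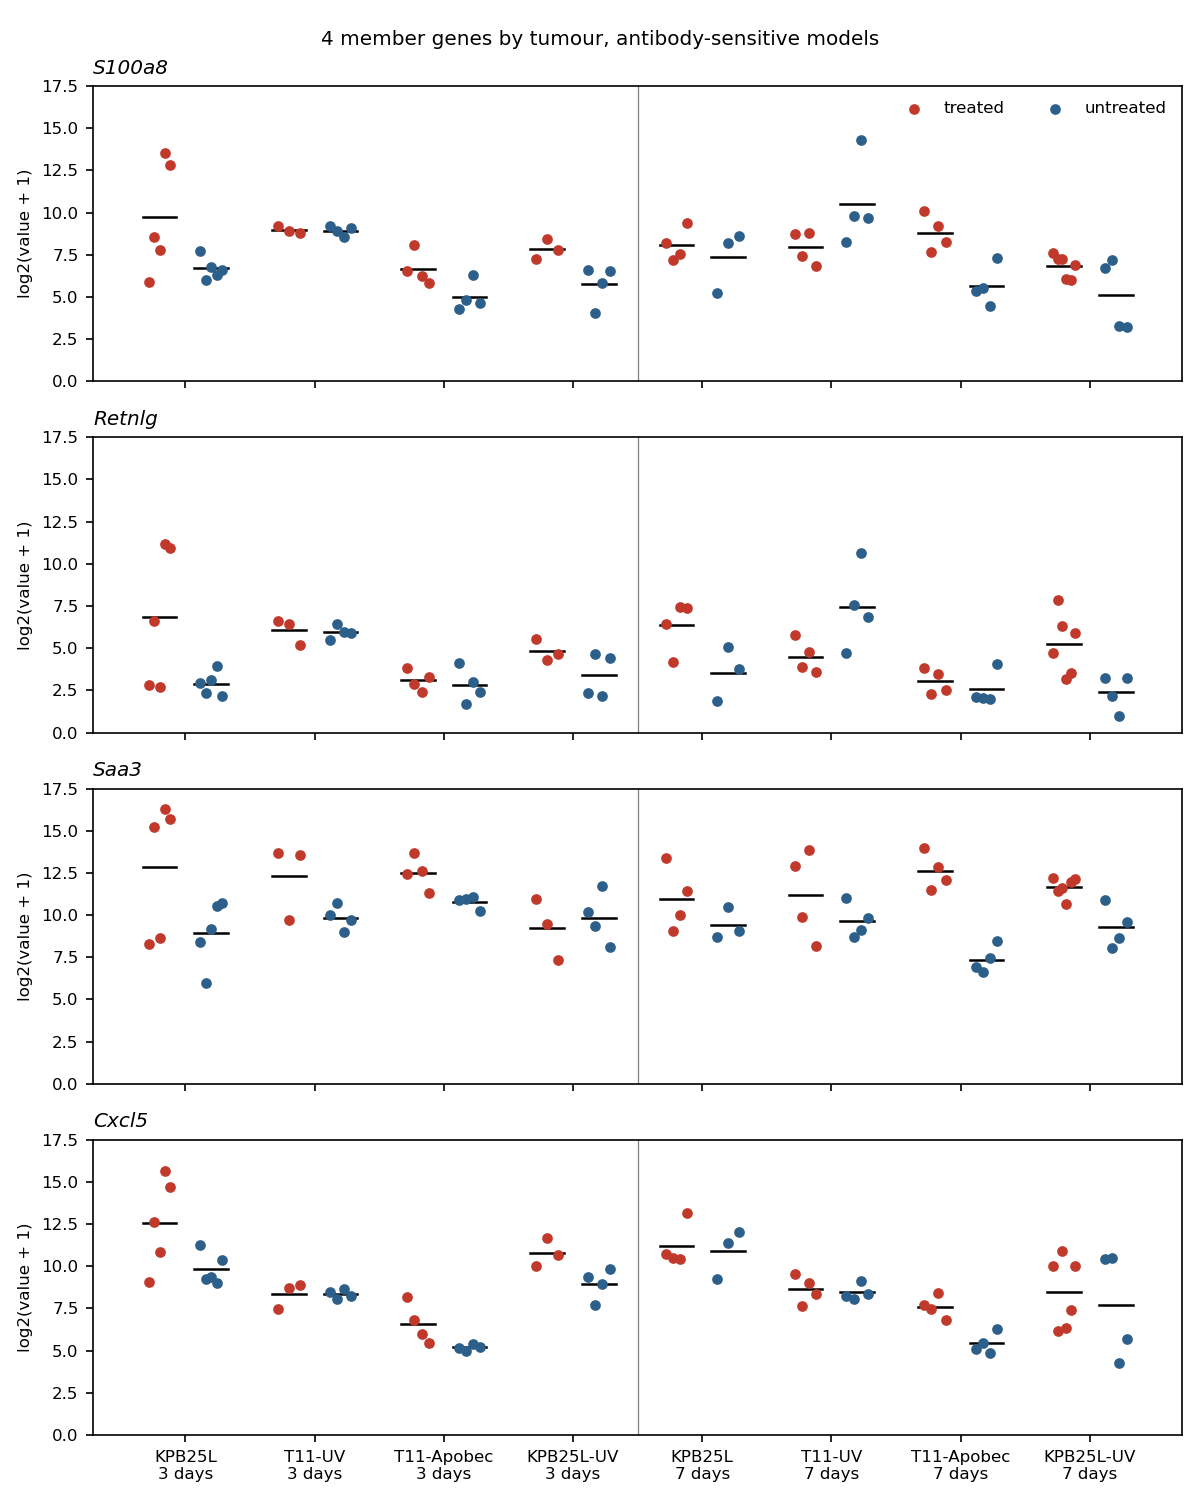
Levels of S100a8, Retnlg, Saa3 and Cxcl5 in each tumour of the 4 sensitive models at 3 and 7 days on a log2(value + 1) axis, treated in red and untreated in blue, with a line at each mean. Treated KPB25L tumours 4 and 5 reach 13.51 and 12.81 for S100a8 at 3 days, and in T11-Apobec at 7 days the treated Saa3 values of 11.46 to 13.97 lie above all untreated ones.

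At end stage no member was called in the sensitive models (0.0288% of all genes called, 1356 at an unadjusted p under 0.05) or in the resistant models (0 called by limma, 1242 at an unadjusted p under 0.05). Within single models Csf3 rose in p53-2336R, where 0.882% of genes rose and 1.19% were called in either direction. No member was called at end stage in KPB25L-UV (5.93% of genes), T11-UV (0.551%), p53-2225L (0.0911%), KPB25L (0.00479%), T11 or T11-Apobec (0% each). Treated tumours had 7.37, 1.30, 3.55, 1.34 and 7.81, against a lowest of 0.00, a median of 0.99 and a highest of 2.06 in the 8 untreated tumours, 3 of which were listed at 0. Treated tumours 1, 3 and 5 lay above all untreated ones, and treated tumours 2 and 4 lay among them. The difference was 3.42 ± 0.73 (limma adjusted p = 0.0039), and it no longer passed without the treated and untreated tumours numbered 1 (2.66, adjusted p = 0.23) or those numbered 5 (2.71, adjusted p = 0.098). The mammary epithelium list was 14.53 and 14.94 in treated tumours 1 and 5, 13.64 to 13.72 in the other treated tumours and 12.47 to 13.99 in untreated ones. The other 9 members were not called there, nor was any gene of the neutrophil, acute-phase or upstream cytokine lists. Cxcl15, in a list of other chemokine and receptor genes, rose by 4.99 ± 1.09 (limma adjusted p = 0.0052).

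Between untreated tumours at end stage and at 3 days, over the 7 models that also had treated arms, S100a9 was the 1 member of 10 that rose, by 1.17 ± 0.33 (limma adjusted p = 0.018), beside 1.06% of all genes that rose and 5.35% called in either direction. It averaged 8.50 at end stage and 7.39 at 3 days in KPB25L, 7.88 and 5.70 in KPB25L-UV, 7.67 and 5.66 in p53-2225L, 6.72 and 4.99 in T11-Apobec, 4.05 and 2.94 in p53-2336R, 7.85 and 7.45 in T11, and 9.80 and 10.12 in T11-UV. The mean was thus higher at end stage in 6 of 7 models, and T11-UV was the exception. S100a8 differed by 0.94 ± 0.31 (adjusted p = 0.056) and passed without the 6 KPB25L-UV libraries with T11 transcripts (1.00, adjusted p = 0.039, beside 5.06% of genes in either direction). KPB-1A, p53-2224L and p53-9263-3 also had untreated tumours at both times and were not in this comparison. Saa3 differed by -1.10 ± 0.38 (adjusted p = 0.071). Over the same comparison the T cell list fell in 6 of 6 genes (median -1.14) and the macrophage list in 6 of 7. Of 28 neutrophil genes, Ngp rose (1.56) and Fpr2, Mcemp1 and Gpr84 fell (-0.94, -0.70 and -0.61). The part of these cells in the S100a9 difference was not tested.

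Against normal mammary gland, untreated end-stage tumours of 5 models of unknown class, those with 4 or more libraries, were higher in the ligand genes, Saa3 and Lcn2, and lower in 2 neutrophil-linked genes, Cxcr2 and Retnlg. Of 50 gene and model pairs 33 were called, 25 higher and 8 lower. Each difference is against the mean of the BALB/c and FVB glands, so mouse strain was not matched to the model. Cxcl2 and Cxcl5 were higher in all 5 models, Saa3 and Lcn2 in 4 and Cxcl1 in 4. The members' calls were 7 of 10 in C3-TAG, beside 66.2% of all genes in either direction, 5 in ILC-Pik3Ca/Cdh1Null beside 40.4%, 5 in KPB-1B beside 57.3%, 8 in KPB-Primary beside 64.7% and 8 in PyMT beside 47.3%. With so many genes called, the counts say little about the members, and their size and direction are given instead.

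Cxcl5 differed most in C3-TAG, by 6.38 ± 0.88 (limma adjusted p = 4.8e-09). It averaged 8.45 ± 1.29 in C3-TAG and 6.75 ± 2.82 in KPB-Primary, whose 24 tumours ran between 1.00 and 12.43 around a median of 6.89, against 2.08 ± 1.19 in BALB/c and 2.06 ± 0.70 in FVB glands. The gland values lie at the level of about 3 reads, so these differences are approximate. Lcn2 averaged 18.93 ± 0.42 in PyMT, where the 5 tumours lay between 18.37 and 19.54 and held the 4 highest values of the series, and 16.29 ± 0.34 in ILC-Pik3Ca/Cdh1Null, against 12.02 ± 0.65 in BALB/c and 12.41 ± 0.60 in FVB glands. The difference was 6.71 ± 0.58 in PyMT (adjusted p = 1.2e-14) and 4.07 in ILC-Pik3Ca/Cdh1Null, whereas KPB-1B averaged 12.46 ± 0.75 and was not called. Saa3 was highest in ILC-Pik3Ca/Cdh1Null, at 9.60 ± 1.07, against 4.37 ± 1.55 in BALB/c and 2.94 ± 0.56 in FVB glands (5.94 ± 0.72, adjusted p = 6e-10). PyMT also differed in Csf3, at 7.11 ± 1.06, against 4.29 and 3.57 in the glands (3.18 ± 0.68, adjusted p = 9.5e-05), and in S100a8, at 10.35 ± 0.55, against 5.49 and 6.28 (4.46 ± 0.95, adjusted p = 8.3e-05).

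The receptor gene Cxcr2 was lower by mean in all 5 models, and single libraries overlapped. Cxcr2 was 5.59 in 1 FVB gland and reached 7.99 in a C3-TAG tumour and 8.27 in a KPB-Primary tumour. It averaged 6.14 ± 1.04 in C3-TAG, 5.48 in ILC-Pik3Ca/Cdh1Null, 5.75 in KPB-1B, 5.502 in KPB-Primary and 5.69 in PyMT, against 8.55 ± 0.95 in BALB/c and 7.82 ± 1.81 in FVB glands. Retnlg was lower in C3-TAG (2.82 ± 0.92), KPB-1B (3.93) and KPB-Primary (3.15 ± 1.60), against 6.27 ± 1.43 and 6.02 ± 0.64 in the glands, and was not called in ILC-Pik3Ca/Cdh1Null (6.64 ± 1.21) or PyMT (4.78). The glands also held far more of other cells' transcripts. The median gene of the B cell list differed by -9.32 in C3-TAG, -3.97 in ILC-Pik3Ca/Cdh1Null, -9.72 in KPB-1B and -8.49 in KPB-Primary, that of the T cell list by -5.70, -2.33, -7.72 and -6.26, and in PyMT all 4 adipocyte genes fell (median -11.20). Of 15 acute-phase genes that are not members, 1 rose and 10 fell in C3-TAG, 5 rose and 4 fell in ILC-Pik3Ca/Cdh1Null, 1 rose and 11 fell in KPB-1B, 3 rose and 9 fell in KPB-Primary, and 5 rose and 9 fell in PyMT, so most did not follow Saa3 and Lcn2. The part of these cells in the Cxcr2 and Retnlg differences was not tested.

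Across tumours the 10 genes varied together. No share over pairs of other genes is given to set beside the counts below. The tumours included the KPB25L-UV libraries with T11 transcripts, and the counts are not given without those. Over 187 tumours, each taken as its deviation from the mean of its own model, time and arm, all 45 pairs were positively correlated, with Pearson r between 0.212 and 0.891 (median 0.504). All 45 passed the permutation test after adjustment over the 45, and 43 did by Spearman's rho, where 1e-05 is the smallest p the permutations can give. S100a8 and S100a9 were closest (r = 0.891, rho = 0.845, permutation p = 1e-05, r = 0.876 without the 2 farthest tumours). S100a9 and the receptor gene Cxcr2 followed (r = 0.829, rho = 0.783, permutation p = 1e-05, 0.817 without the 2). Among the ligands Cxcl1 and Cxcl5 had r = 0.819 (rho = 0.735, permutation p = 1e-05, 0.801 without the 2), and Cxcl1 and Cxcl2 r = 0.608. Saa3 stood apart, with r of 0.212 with Csf3, 0.218 with Cxcr2 and 0.222 with Cxcl1. Its rho with Cxcr2 was 0.109 (permutation adjusted p = 0.194) and with Cxcl1 0.151 (0.068), and these 2 pairs were the ones that Spearman's test did not call. Within group and flow cell (149 tumours), 43 of 45 pairs passed, and without treated 3-day KPB25L tumours 4 and 5 and untreated 7-day T11-UV tumour 3 (184 tumours), 44 did.

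**Figure D4:**
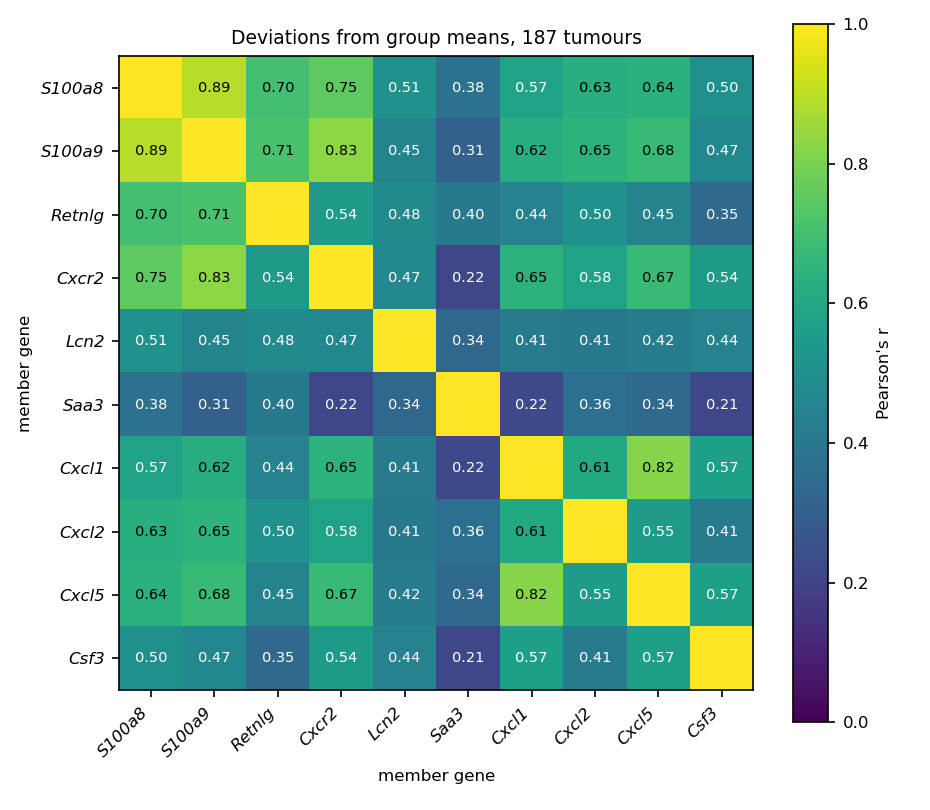
Pearson correlation of each pair of the 10 genes over 187 tumours, as deviations from the mean of the model, time and arm. S100a8 has r of 0.701 to 0.891 with S100a9, Cxcr2 and Retnlg, Cxcl1 and Cxcl5 reach 0.819, and Saa3 has the lowest values, down to 0.212.

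The genes whose deviations were most like a member's, by Pearson r over the same 187 tumours, which share libraries, depth and scaling with it, are given as a description. For S100a8 they were Il1f9 (0.731), Stfa2l1 (0.722), Stfa2 (0.652), BC100530 (0.647) and Cyp4f18 (0.633), and for Retnlg Stfa2l1 (0.647), Stfa2 (0.642), Hdc (0.601), BC100530 (0.554) and Mrgpra2b (0.551). The names Stfa2l1, Stfa2 and BC100530 belong to the stefin A family, a group of near-identical copies among which reads may be split, so their values are uncertain. Without the 3 high tumours left out above, r was 0.504 to 0.645 for the genes listed with S100a8 and 0.412 to 0.515 with Retnlg. The values that follow changed less. For Lcn2 the nearest were Hp, which encodes haptoglobin (0.726), Klhdc7a (0.675) and Tmprss13 (0.669). For Saa3 they were Rarres2 (0.670), F10 (0.664) and Pstpip1 (0.662). For Cxcl1 they were Ier3 (0.674), the prostaglandin synthase gene Ptgs2 (0.654) and Il13ra2 (0.642), and for Cxcl5 the neighbouring ligand gene Cxcl3 (0.67), Il1f9 (0.657) and Serpinb2 (0.640). For Csf3 they were Entpd3 (0.606), Mirt1 (0.604) and the keratin gene Krt7 (0.582), and these values were lower, at 0.453 to 0.470, without the 6 KPB25L-UV libraries with T11 transcripts.

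In cultured tumour lines, 3 of KPB25L and 3 of T11 origin with 1 library each, some members were present and others low or absent. The lines show levels in culture and not which cells carry a gene in tumours. They were scaled in a table of their own, so no test links them to the tumours, and their values are given on the deposited scale. Retnlg was listed at 0 in all 6 lines. Cxcr2 was at most 0.8, S100a8 at most 6.5 and S100a9 at most 6.8. The ligand gene Cxcl1 was present in all 6, between 40.3 and 563.6, above 42.3% to 66.2% of the genes detected in the same line. Cxcl2 was 2.5 to 21.7, Saa3 0.9 to 20.2 and Lcn2 0 to 63.4.

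Cxcl5 and Csf3 separated the cultured lines by family. Cxcl5 was 943.2, 135.7 and 56.9 in the KPB25L lines, against 18, 11.3 and 0 in the T11 lines. Csf3 was 47.9, 23.8 and 34.0 in the KPB25L lines, against 0.9, 0.4 and 2.4 in the T11 lines. For both genes all 3 KPB25L lines lay above all 3 T11 lines, the same direction as between untreated KPB25L and T11 tumours, and the lines are derivatives of 2 parents and not independent replicates. As a rank within the library, Cxcl5 lay above 46.8% to 74.0% of detected genes in the KPB25L lines and above 55.4% to 78.4% in untreated 3-day KPB25L tumours. Csf3 lay above 39.3% to 45.8% in the KPB25L lines and above 36.1% to 49.2% in those tumours. S100a8 and Cxcr2, both low in the lines, lay above 39.6% to 46.4% and 39.6% to 48.2% of detected genes in the same tumours.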

How the data were processed

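RNA-seq libraries of mouse tumours, mammary glands and cultured lines were made with Illumina TruSeq mRNA kits and read in pairs on Illumina HiSeq instruments, per the labels' protocols. STAR, SAMtools, Picard and Salmon and the build mm10 are named in the submitters' processing notes, without versions. The authors deposited a gene signal scaled so that the upper quartile of genes above 0 is the same in each library, in 1 table for tumours and glands and another for lines. Low values were whole multiples of a read (tolerance 0.01) for 28.3% to 82.8% of values in a library (median 70.7%), too few to recover counts, so no count test was run and depths are estimates. From 45724 entries, 39 date-like names and 28 entries of 14 repeated symbols were left out. 1 value column matched no sample and was not used. Precision is set by the number of mice and, for low genes, by depth.

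Levels were log2(value + 1). Genes above 0 in at least 4 samples and in the upper 66.7% by mean level were tested (20859, and 20887 with glands). limma 3.58.1 (R 4.3.3) was fitted with a trended variance on the means of 47 groups over 192 samples (145 residual degrees of freedom), with Benjamini-Hochberg adjustment over all genes and a threshold of 0.05. Tests are two-sided, and errors are SE for differences and SD for levels. Libraries of 1 mouse were averaged (a KPB25L pair at 7 days and an ILC-Pik3Ca/Cdh1Null pair). The labels give a mouse number for some libraries only. Elsewhere p-values measure only the spread between libraries of 1 line, which may be technical. The labels also name a flow cell for some libraries only, and for no 7-day KPB25L or KPB25L-UV library. Differences over several models weight models equally. On data simulated for the 7-day comparison of sensitive models, 71 of 100 genes changed by 1 and 93 of 100 changed by 2 on the log2 scale were recovered, and 8 of 20659 unchanged genes were called. These shares are not specific to the members, so they do not give the power for them. Correlations used 100000 permutations.

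The members, gene lists and tests were chosen with earlier results of these data known. Named genes were all 10 members, up to 4 genes of a list with the smallest adjusted p among those called, and genes among the 5 most like a member. The F test among models at 7 days, the runs without particular tumours and those within flow cells were added after the values were seen. Alternatives covered the pseudocount, the filter, the scaling, the variance and leaving out each replicate. The 13 genomic samples were not analysed here. Positions came from GENCODE vM21 and promoters from RefSeq (GRCm38.p6).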

Additional observations from a re-analysis of the deposited data

Results flagged for a closer look

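The effect of therapy at 7 days differed among the 5 models sampled then, by limma's F test, in S100a8 (adjusted p = 0.00981), Cxcl2 (0.0403) and Retnlg (0.0166). On their own, S100a8 and Cxcl2 were called in T11-Apobec and Retnlg in KPB25L-UV, each as a rise, and none of the 3 was called in T11-UV, where their differences were negative.

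In groups of 4 to 10 tumours, 23 of 320 gene and group sets held a value set apart from the rest of its group, where chance gives about 1 in 20. In KPB25L these were Cxcr2 in untreated tumour 1 at 3 days (8.10), Cxcl5 in treated tumour 4 at 7 days (13.14), and S100a9 (10.03) and Cxcr2 (9.46) in untreated tumour 2 at end stage. In KPB25L-UV at end stage S100a8 stood out in treated tumour 3 (8.48), and Lcn2 (3.64), Cxcl1 (6.57) and Cxcl5 (6.97) were low in untreated tumour 2, 1 of the 6 libraries with T11 transcripts. In T11 they were Cxcl5 (8.46) and Csf3 (4.46) in treated tumour 2 at 3 days, Retnlg in untreated tumour 2 at 7 days (7.09) and Cxcl5 in treated tumour 2 at end stage (7.81). Untreated 7-day tumours stood out for Retnlg in T11-Apobec (tumour 4, 4.08) and Lcn2 in T11-UV (tumour 3, 10.51), the tumour with the highest S100a9 of the series.

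Treated T11-UV tumour 5 at end stage was low in S100a9 (7.42), Cxcr2 (4.80), Cxcl1 (7.07) and Cxcl2 (4.49) at once. In p53-2225L at 3 days Cxcl2 was set apart in treated tumour 1 (4.68) and Csf3 in untreated tumour 2 (1.60). In p53-2336R, Cxcl2 in treated tumour 2 at 3 days and S100a8 in untreated tumour 5 at end stage were listed at 0.00, and Cxcl5 was low in treated tumour 5 at 3 days (2.27).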

How the results depend on the processing

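The 3-day count of 8 members called in the sensitive models fell to 0 with flow cell as a term, with the spread of the compared groups only, without KPB25L and without treated KPB25L tumours 4 and 5, and to 5 with no filter on low values. By leave-one-out it ran between 0 and 8. The resistant models went to 4 calls with flow cell as a term, where the main count was 0. The 7-day count of 1 was 5 in the 3 sensitive models other than T11-UV. It was 3 in those models without the 6 libraries with T11 transcripts. Over all 4 models it was 2 without those 6 and 1 to 2 by leave-one-out. The single-model count of 15 was 6 with the spread of the compared groups only and 7 to 15 by leave-one-out. Leaving out 1 tumour within a model could also add calls. Members called then ran between 0 and 4 in T11-UV and 0 and 3 in KPB25L-UV at 7 days. At 3 days they ran between 0 and 9 in KPB25L and 0 and 1 in T11-UV. The count of 1 between end stage and 3 days was 3 with that spread, 0 at a pseudocount of 50, 2 without the 6 libraries and 0 to 1 by leave-one-out. The class comparison gave 0 to 1 calls by leave-one-out, with 1 without T11. Cxcl2 in KPB25L at 3 days reversed, to -0.15 with flow cell as a term and -0.024 without treated tumours 4 and 5. In each case the cause was not tested, beyond the fewer samples where some were left out. The gland count of 33 kept to 27 to 33, the untreated-model count of 10 to 9 to 10, and the 45 correlated pairs to 43 to 45. Of single-gene values 3107 kept their direction and side of the threshold, 304 lost a call, 16 gained one and 2 reversed, over 128 results. No paired analysis was possible because the labels give no replicate numbers shared between arms. Flow cell could not be fitted for end stage against 3 days, nor for T11-Apobec and KPB25L-UV at end stage. At 3 reads a level of 1.17 to 5.90, low Retnlg, Csf3 and Cxcr2 values are bounded by depth.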
